A study of Mus musculus with 4 samples.

Results

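The 9 genes described here are Tmem119, Crybb1, Slc2a5, Gpr34, Olfml3, Sparc, Fcrls, Lag3 and Cst3. They were chosen by symbol, with earlier results of these data known, as textbook markers of the homeostatic state of microglia. Purine receptors and transcription factors were left aside. All 9 of 9 were found among the 18526 genes listed. RNA sequencing was done on microglia sorted by fluorescence from the embryonic day 14 mouse telencephalon (the protocol says cortex), on the C57BL/6 strain. The knockout group is labelled Arid1acKO, a conditional deletion of Arid1a, whose product belongs to the BAF complexes that remodel chromatin, and the control group is labelled Arid1afl/fl, floxed mice. The sources used here name no Cre driver and do not say whether a sample came from 1 embryo or from a pool. Of the 4 samples in the labels, 3 libraries were analysed: knockout replicate 2 and controls 5 and 6. Knockout replicate 1 was not analysed here. A knockout value is therefore 1 measurement with no replicate error, and a control value has 2. Nothing in the labels shows separate animals, so every p-value below reflects the scatter of these libraries alone, and that scatter may be technical.

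Microglia enter the embryonic brain from the yolk sac as macrophages and gain their adult signature over development. The homeostatic signature is a set of transcripts that sets resting parenchymal microglia apart from other macrophages. It is sustained by signals from the brain, among them TGF-beta and ligands of the CSF1 receptor, and many of its members fall when microglia become activated or leave the brain. Some members, such as Crybb1, are best known from immature microglia, and others, such as Tmem119, mark mature cells most strongly.

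The libraries held 17262261 counted reads in the knockout, 18608979 in control 5 and 13774075 in control 6. Arid1a itself stood at 68.9 CPM (counts per 1000000 counted reads, with libraries scaled by TMM, a trimmed mean of ratios between them) in the knockout, 109 in control 5 and 130 in control 6, so the knockout was the lowest library (log2 fold change -0.80, SE 0.41, adjusted p = 0.901, edgeR quasi-likelihood test). A floxed allele loses only part of a gene, and reads from its other exons still count. The counts used here are per gene, so the source of the remaining Arid1a reads was not tested. The macrophage markers Csf1r, Ptprc and Aif1 were present in every library, with Csf1r at 3237 CPM or more in each and Aif1 at 55.6 CPM or more in each. In bulk RNA, fewer cells of a type and less RNA per cell cannot be told apart.

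The 9 genes did not move together. In the knockout library Crybb1, Slc2a5, Tmem119 and Lag3 stood at 6.34%, 24.2%, 30.7% and 26.2% of the control mean. Gpr34 stood at 64.6%, Fcrls at 85.7% and Olfml3 at 96.8%, while Sparc stood at 149% and Cst3 at 271%. The knockout was below both controls in 6 of 9 genes (35.3% of the 9711 genes at a mean of 5 CPM or more), above both in 2 (35.8%), and between them for Olfml3. Below both controls by 2-fold or more were 3 members, Crybb1, Slc2a5 and Tmem119 (4.88% of those 9711 genes), and 1, Cst3, was above both by as much (3.50%). The median log2 fold change of the 9 genes was -0.63, beside 0.05 over all 15236 genes tested.

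No member passed the test, 0 of 9 against 0.0394% of all genes tested (adjusted p under 0.05, edgeR quasi-likelihood F test with Benjamini-Hochberg adjustment, two-sided). With 1 knockout library the test takes its spread from the 2 controls, mostly as pooled over all genes rather than gene by gene. At an unadjusted p under 0.05 there were 4 members lower (3.54% of all genes) and 1 higher (2.46%). The DESeq2 Wald test called 4 of 9, Crybb1, Tmem119 and Slc2a5 lower and Cst3 higher (1.84% of the genes it tested), and edgeR called Crybb1 when only genes at 5 CPM or more in 2 libraries were tested (adjusted p = 0.0479).

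**Figure D1:**
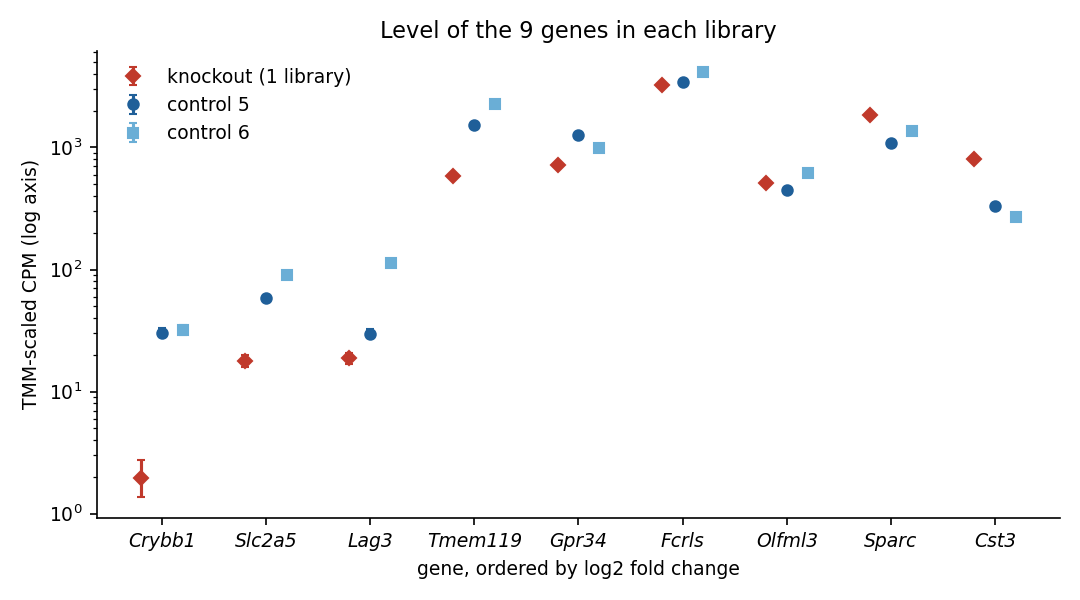
TMM-scaled CPM on a log axis for each of the 9 genes in the knockout library (diamonds), control 5 (circles) and control 6 (squares), with exact Poisson 95% intervals as bars, most of them smaller than the symbols. Crybb1 shows the widest separation, at 1.97 CPM in the knockout against 30.3 and 31.9, and Cst3 is highest in the knockout, at 808 against 331 and 267.

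Crybb1 encodes a beta-crystallin, a structural protein of the eye lens that is also transcribed in developing microglia (ENSMUSG00000029343, GRCm38 chromosome 5, 112255815 to 112269585, plus strand, 6 exon blocks). Control 5 held 543 Crybb1 reads, control 6 held 430 and the knockout 36. Scaled, these are 30.3, 31.9 and, in the knockout, 1.97 CPM (exact Poisson 95% interval 1.38 to 2.73, counting error only). The controls were nearly level, differing by 1.05-fold, and the knockout lay far below both, beside a control mean of 31.1 ± 1.08 CPM (SD, n = 2). The log2 fold change was -3.97 (SE 0.70, adjusted p = 0.145, edgeR), which ranked 48 by p among 15236 genes. Of the lens crystallins and other lens genes in a list of 10, Cryaa, the major lens alpha-crystallin, was listed in neither table, as were Mip and Bfsp1. The listed member that stands beside Crybb1 on the chromosome is Cryba4, another beta-crystallin (minus strand, 3296 bases between the genes). Cryba4 had 285, 757 and 782 reads, or 15.6 CPM in the knockout against 42.3 and 57.9, also below both controls (log2 fold change -1.68, SE 0.53, adjusted p = 0.592). The other tested gene of that list, the small heat shock protein Cryab, had 6.95 CPM in the knockout, within the control values of 8.66 and 5.26, so of 2 lens genes 1 was below both controls and 0 above.

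Tmem119 is a single-pass membrane protein and among the most used markers of microglia (ENSMUSG00000054675, chromosome 5, 113793729 to 113800516, minus strand). Its reads numbered 10655 (knockout), 27488 (control 5) and 30584 (control 6). These are 583 CPM (572 to 594), 1535 and 2266 CPM, a control mean of 1901 ± 517 (SD, n = 2). The knockout was below both controls by more than the controls differed from each other, with log2 ratios of -1.40 and -1.96 where control 6 exceeded control 5 by 0.56. The log2 fold change was -1.70 (SE 0.38, adjusted p = 0.294, edgeR). Selplg, a homeostatic gene next to it on the chromosome, had a knockout level of 425 CPM, within the control range of 421 to 576.

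Slc2a5 is the fructose transporter GLUT5, which in the brain is largely a microglial gene (ENSMUSG00000028976, chromosome 4, 150119283 to 150144169, plus strand). It had 327 reads in the knockout against 1052 and 1206, or 17.9 CPM (16.0 to 19.9) against 58.8 in control 5 and 89.4 in control 6. The knockout library was below both controls, as in 35.3% of the 9711 genes at a mean of 5 CPM or more. The control mean was 74.1 ± 21.6 CPM (SD, n = 2). The log2 fold change was -2.05 (SE 0.51, adjusted p = 0.380, edgeR). The profile of Slc2a5 over the 3 libraries was close to that of Tmem119, 0.274 apart as a Euclidean distance between centred log2 CPM values. That is the second smallest of the distances between the members, after 0.214 for Olfml3 and Fcrls.

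Lag3 is an inhibitory receptor related to CD4 that binds MHC class II and is best known from T cells (ENSMUSG00000030124, chromosome 6, 124904361 to 124911705, minus strand). Its 342 knockout reads compared with 534 and 1523 in controls 5 and 6, which are 18.7 CPM (16.8 to 20.8), 29.8 and 113 CPM. Control 6 stood apart here, 3.78-fold above control 5, and this gap was wider than that between the knockout and control 5. Against control 5 the log2 ratio was -0.67 and against control 6 it was -2.58, and the fitted log2 fold change was -1.93 (SE 0.79, adjusted p = 0.811, edgeR). Among 12 T and NK cell markers, Cd3e, Cd3d, Cd3g, Cd4 and Cd8a were listed in neither table and 2 markers were tested. The abundant one was Il7r, the interleukin 7 receptor, at 79.8 CPM in the knockout against 20.3 and 15.1, and its part in the Lag3 level was not tested.

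**Figure D2:**
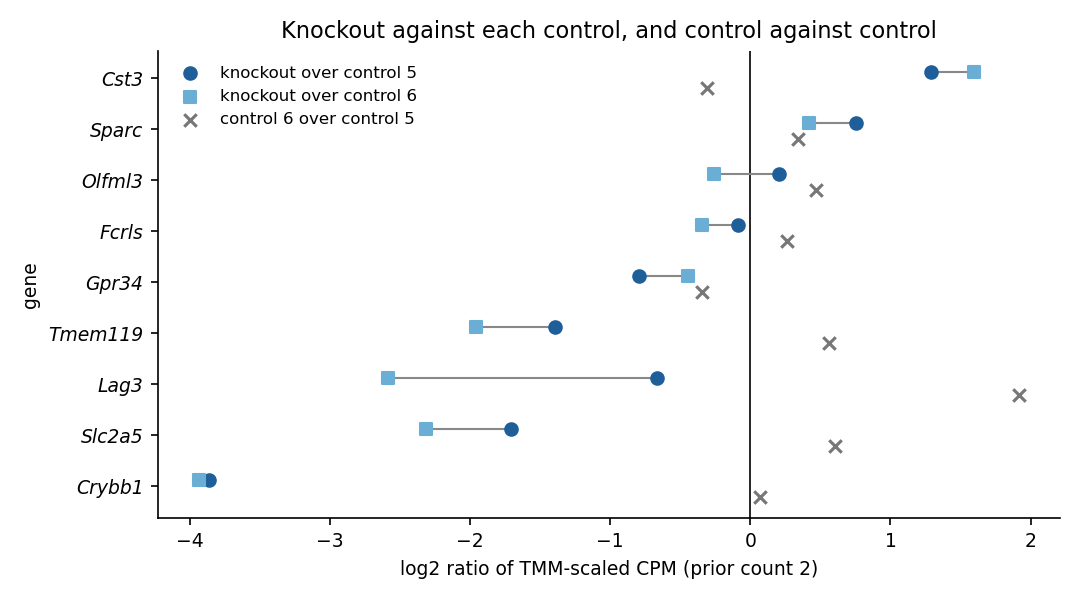
Log2 ratio of the knockout library over control 5 (circles) and over control 6 (squares) for each gene, joined by a line, with control 6 over control 5 below them (crosses); both knockout ratios share the knockout library. For Crybb1 the knockout ratios are -3.86 and -3.93 and the controls differ by 0.07, whereas for Lag3 the controls differ by 1.92.

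Gpr34 is a G protein-coupled receptor for lysophosphatidylserine (ENSMUSG00000040229, chromosome X, 13632089 to 13640858, plus strand). It had 13209, 22427 and 13313 reads in the knockout, control 5 and control 6, or 723 CPM (711 to 736), 1253 and 987 CPM. The knockout was the lowest library, by log2 ratios of -0.79 and -0.45, and the controls differed by 0.34 (log2 fold change -0.63, SE 0.35, adjusted p = 0.931, edgeR). Fcrls, an Fc receptor-like scavenger receptor found in rodents (ENSMUSG00000015852, chromosome 3, 87250758 to 87263738, minus strand), was the most abundant member in reads, with 59148, 61568 and 55540. Its level was 3238 CPM in the knockout against 3439 and 4116, 1.06-fold below control 5 where the controls themselves differed by 1.20-fold (log2 fold change -0.22, SE 0.30, adjusted p = 1.00). Over the 9 genes, those below both controls by more than the controls differed were 4, Crybb1, Slc2a5, Tmem119 and Gpr34 (20.0% of genes at a mean of 5 CPM or more), and those above by as much were 2, Cst3 and Sparc (16.4%).

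Among the 3 secreted products, Cst3 and Sparc were higher in the knockout library and Olfml3 was not. Cst3 is cystatin C, an inhibitor of lysosomal cysteine proteases that microglia secrete (ENSMUSG00000027447, chromosome 2, 148871722 to 148875692, minus strand). Reads of Cst3 numbered 14764 in the knockout, with 5918 and 3600 in controls 5 and 6, or 808 CPM (795 to 821) against 331 and 267. The knockout was above both controls, 2.44-fold and 3.03-fold, where the controls differed by 1.24-fold (control mean 299 ± 45.1 CPM, SD, n = 2). The log2 fold change was 1.44 (SE 0.34, adjusted p = 0.332, edgeR).

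Sparc, a matrix-associated glycoprotein that binds collagen (ENSMUSG00000018593, chromosome 11, 55394500 to 55423183, minus strand), was counted 33393 times in the knockout and 19377 and 18451 times in the controls. That is 1828 CPM (1808 to 1848) against 1082 in control 5 and 1367 in control 6, above both controls by log2 ratios of 0.76 and 0.42 (log2 fold change 0.58, SE 0.32, adjusted p = 0.931, edgeR). Olfml3, a secreted glycoprotein with an olfactomedin domain (ENSMUSG00000027848, chromosome 3, 103722222 to 103738001, minus strand), had 9402, 7987 and 8333 reads, or 515 CPM between 446 in control 5 and 617 in control 6. Its log2 fold change was -0.05 (SE 0.36, adjusted p = 1.00). None of the 9 genes shares exon bases with another gene of the GENCODE M21 annotation on either strand, so by that annotation no reads of an overlapping gene enter their counts.

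Cells other than microglia, which may be left in sorted brain samples, also make Sparc and Cst3. Endothelial cells and mural cells are rich sources of Sparc. The 11 tested endothelial markers summed to 265 CPM in the knockout, 181 in control 5 and 209 in control 6, with 6 of 11 above both controls and 3 below. Most of each sum was Slc2a1, a glucose transporter, at 221 CPM in the knockout against 138 and 165. The higher sum in the knockout came from Slc2a1, and the other endothelial markers together were nearly level between libraries. Over all genes tested, 38.0% were above both controls and 31.1% below. At an unadjusted p under 0.05 (edgeR), 2.46% were higher and 3.54% lower. The counts of the other lists are read against these shares. Cldn5, a tight junction protein, had 126, 32 and 0 reads, while Pecam1, an endothelial adhesion molecule, had 71, 367 and 368. The secreted vascular factor Egfl7 had 260, 3 and 19 reads, and Kdr, a VEGF receptor, had 261, 131 and 88. Of 15 mural and meningeal fibroblast markers 3 were tested, summing to 12.7 CPM against 12.5 and 15.6, and Col1a1, Col1a2, Col3a1, Dcn and Lum were listed in neither table. The pericyte genes Rgs5 and Pdgfrb had 169, 206 and 175 reads and 63, 0 and 26 reads. Border-associated macrophages, which also make Cst3, had 17 of 17 markers tested, summing to 3155 CPM in the knockout against 1443 and 1676, with 9 above both controls and 4 below. Of these Ms4a6c, a membrane protein of the MS4A family, stood at 651 CPM against 91.0 and 72.3 (adjusted p = 0.0561, edgeR). Its relative Ms4a6b stood at 686 against 243 and 146, the endocytic adaptor Dab2 at 1131 against 350 and 345, and the carbonyl reductase Cbr2 at 15.5 against 3.30 and 4.52. The higher sum in the knockout came from Ms4a6c, Ms4a6b and Dab2, and the other markers together were not higher there. In all, 6 of the 17 were above both controls by 2-fold or more, as were 1406 of all 15236 genes tested. At an unadjusted p under 0.05, 4 were higher and 0 lower, with 0 called. Mrc1, the mannose receptor that defines those cells, stood at 243 against 242 and 216, and the chemokine Pf4 at 5.53 against 7.65 and 4.52.

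Markers of neural and blood cells were also read. The 13 tested neural progenitor markers summed to 230 CPM in the knockout against 165 and 170, with 6 above both controls and 2 below. The higher sum in the knockout came from the intermediate filament Vim, at 102 CPM against 36.5 and 18.4 (adjusted p = 0.436, edgeR). The progenitor markers Sox2 and Eomes were listed in neither table. The filament Nes stood at 97.0 against 97.0 and 113, the phosphatase Ptprz1 at 6.90 against 3.57 and 6.52, and the glutamate transporter Slc1a3 at 3.34 against 7.76 and 14.9. The 15 neuron markers summed to 174 CPM against 223 and 246, with 7 below both controls and 4 above. Neurod6 stood at 41.8 against 81.7 and 65.1, Bcl11b at 7.39 against 18.0 and 15.8, Map2 at 24.3 against 40.5 and 45.1, and Stmn2 at 9.25 against 3.02 and 7.26. The 14 tested monocyte and neutrophil markers summed to 497 CPM against 503 and 547, with 5 above both controls and 4 below. Among them Plac8 stood at 68.9 against 14.7 and 31.7, the chemokine receptor Ccr2 at 93.0 against 120 and 138, and Csf3r at 141 against 147 and 287, and the neutrophil granule gene Ltf had 732, 573 and 25 reads. The 5 tested astrocyte and oligodendrocyte markers summed to 47.2 CPM against 19.1 and 40.4, with Cnp at 23.8 against 18.7 and 17.0 and Mbp at 16.4 against 0.447 and 17.8. The 6 tested erythroid markers summed to 40.9 CPM against 37.8 and 46.5, with the alpha-globin Hba-a1, which has a near-identical copy, at 27.6 against 28.3 and 35.1. In each of these 5 lists 0 genes were called, and at an unadjusted p under 0.05 there was 1 higher gene in the progenitor, the monocyte and the glial list and none in the others. The part of any of these other cells in the values of the 9 genes was not tested.

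Ratios of reads within a library do not depend on how libraries are scaled. Per 1000 reads of Cst3, Tmem119 had 722 reads in the knockout, with 4645 and 8496 in controls 5 and 6. Tmem119 and Cst3 lay on opposite sides of the controls, so their ratio combines differences already given above. Set against Fcrls, the most abundant member, there were 180 reads of Tmem119 per 1000 in the knockout, 446 in control 5 and 551 in control 6. Sparc stood the other way, with 565 reads per 1000 of Fcrls against 315 and 332, and Gpr34 had 223 against 364 and 240. Olfml3 had 159 per 1000 of Fcrls in the knockout against 130 and 150. Summed over the 9 genes, reads made up 0.818%, 0.789% and 0.965% of the knockout, control 5 and control 6 libraries, and Fcrls alone gave 41.9%, 41.9% and 41.8% of them. As a share of counted reads the sum in the knockout lay between those of the controls, but with TMM scaling it was below both, at 7734 CPM against 8205 and 9854.

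Levels of different genes can be compared per length, as reads per kilobase of exon, scaled to the same total in each library. On this scale Fcrls was the highest member in each library, at 4848 in the knockout, 4700 in control 5 and 5899 in control 6, placing it 19, 22 and 16 among 16618 genes. Tmem119 was in place 2 of 9 in both controls, at 2116 and 3275 (ranks 51 and 29), and in place 5 in the knockout, at 880 (rank 153). Cst3 was in place 2 in the knockout at 2231 (rank 44) and in place 5 in the controls at 833 and 705 (ranks 166 and 190). Sparc, at 1686 in the knockout, and Gpr34, at 1209, came next there. In the controls the ranges of the 6 highest members did not overlap, with Gpr34 at 1579 to 1912 and Sparc at 911 to 1207. Olfml3 was in place 6 in all 3 libraries, at 292, 231 and 335. Exon length was the union of all annotated exons of a gene, and Olfml3 had the longest of the 9, 6161 bases. The levels and places given here depend on that choice of length. The order of the 3 lowest members was not settled in the controls, since the Lag3 range covered those of Crybb1 and Slc2a5. Crybb1 stood at 6.99 in the knockout (rank 9078) against 98.2 and 108 (ranks 1675 and 1540), Slc2a5 at 18.4 against 55.1 and 87.9, and Lag3 at 31.0 against 45.1 and 179.

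**Figure D3:**
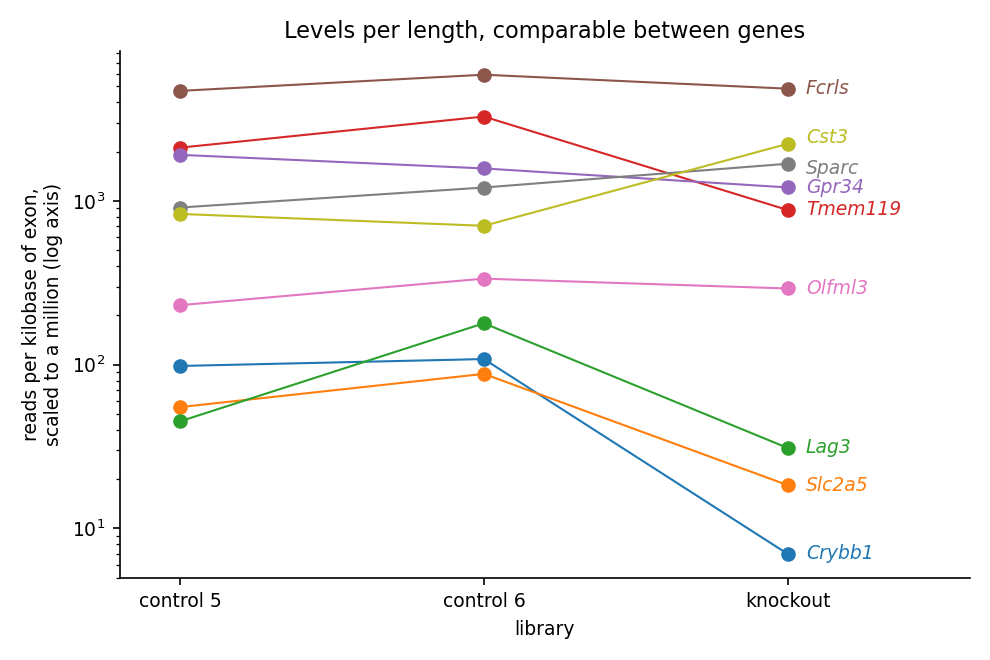
Reads per kilobase of exon, scaled to the same total in each library, on a log axis, for each of the 9 genes in control 5, control 6 and the knockout library; lines join the values of 1 gene and carry no order of time. Fcrls is on top in each library, Cst3 passes Tmem119, Gpr34 and Sparc only in the knockout, and Crybb1 is lowest there, at 6.99.

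Promoter sequences are shown for the member with the lowest knockout level relative to controls (Crybb1), another low one (Slc2a5), the most abundant one (Fcrls) and the one with the highest knockout level relative to controls (Cst3). Each is the 250 bases before the RefSeq start site on GRCm38.p6, printed 5′ to 3′ on the strand of the gene. Capitals mark matches to the motifs searched. By the GENCODE M21 positions given above, the start of each of these genes falls inside its printed window. The window then overlaps the gene by a few bases in Crybb1, a minor part in Slc2a5 and most of its length in Fcrls and Cst3.
Crybb1 (chr5:112255570-112255819, plus strand): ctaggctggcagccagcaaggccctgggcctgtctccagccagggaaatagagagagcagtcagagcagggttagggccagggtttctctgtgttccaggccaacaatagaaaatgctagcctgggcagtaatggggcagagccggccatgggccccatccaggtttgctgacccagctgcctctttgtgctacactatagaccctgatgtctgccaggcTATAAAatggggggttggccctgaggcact
Slc2a5 (chr4:150119094-150119343, plus strand): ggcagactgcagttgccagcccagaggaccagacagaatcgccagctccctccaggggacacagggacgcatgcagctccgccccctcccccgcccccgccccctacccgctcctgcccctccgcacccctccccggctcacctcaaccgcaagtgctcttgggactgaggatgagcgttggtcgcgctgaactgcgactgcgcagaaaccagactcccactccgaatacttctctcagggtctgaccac
Fcrls (chr3:87263525-87263774, minus strand): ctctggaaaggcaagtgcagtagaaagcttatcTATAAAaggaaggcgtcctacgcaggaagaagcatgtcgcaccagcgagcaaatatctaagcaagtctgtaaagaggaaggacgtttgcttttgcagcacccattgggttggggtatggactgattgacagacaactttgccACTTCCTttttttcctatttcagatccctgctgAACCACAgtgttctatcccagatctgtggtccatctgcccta
Cst3 (chr2:148875513-148875762, minus strand): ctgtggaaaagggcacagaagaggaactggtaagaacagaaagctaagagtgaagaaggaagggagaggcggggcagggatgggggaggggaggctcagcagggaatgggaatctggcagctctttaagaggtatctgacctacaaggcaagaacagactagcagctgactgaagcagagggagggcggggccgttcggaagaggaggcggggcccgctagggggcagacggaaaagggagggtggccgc
The RefSeq promoter table held 6 of the 9 members (Crybb1, Slc2a5, Olfml3, Sparc, Fcrls and Cst3), and the 300-base windows (250 before and 50 after the start) were searched on both strands for 6 motifs. AGGAAGT, a core of sites for the macrophage factor PU.1, was in 1 of the 6 windows, that of Fcrls, and in 9.35% of all 32851 promoters. TGTGGTT, a core of RUNX sites, was also in that of Fcrls alone (5.27% of all promoters). By the GENCODE M21 start of Fcrls, both matches lie inside the gene. TATAAA, the TATA box core, was in 2 of 6 (13.6% of all). It lay 30 bases before the RefSeq start in Crybb1 and 217 bases before it in Fcrls. The Fcrls match spans the GENCODE M21 start. TGANTCA, the AP-1 motif, was in 0 of 6 (7.81% of all), as were the IRF motif (3.44%) and the MEF2 motif (3.69%). No match overlapped another. The 4 promoters printed differ in base composition, with 58.0% G and C in Crybb1, 66.4% in Slc2a5, 46.8% in Fcrls and 59.6% in Cst3, beside a median of 52.4% over all promoters. A match to a motif is a description of the letters, and its absence from the window says nothing of the factor.

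Other genes of the homeostatic signature were lower in the knockout library more often than they were higher. In a list of 37, chosen with earlier results of these data known, 36 were tested, all at a mean of 5 CPM or more. For these the knockout was below both controls in 26 (35.3% of the 9711 genes at that level), above both in 2 (35.8%) and between them in 8. The median log2 fold change was -0.65, with -0.40 over control 5 and -0.72 over control 6, beside 0.05 over all genes. The test called 1 of 36, the sialic acid-binding lectin Siglech, which fell to 58.3 CPM from 918 in control 5 and 1057 in control 6 (log2 fold change -4.08, SE 0.42, adjusted p = 0.0324, edgeR). That call was lost with DESeq2 size factors, upper-quartile factors, no low-count filter or scaling to macrophage genes, under each of which edgeR called 0 genes. Pros1, a bridge to dying cells, stood at 471 CPM against 2739 and 2635 (adjusted p = 0.0773). Adgrg1, an adhesion receptor, stood at 5.97 CPM against 78.6 and 168 (adjusted p = 0.104). Lpcat2, an enzyme of membrane lipid remodelling, stood at 209 CPM against 908 and 1255 (adjusted p = 0.130). Summed, the 36 genes gave 17902 CPM in the knockout against 30463 and 37225.

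Genes shared by macrophages in general had a median log2 fold change of -0.20 over 20 genes, 8 below both controls, 7 above and 0 called (2 lower at an unadjusted p under 0.05). Their summed level was 22255 CPM in the knockout against 22614 and 29230. Aif1, the calcium-binding protein IBA1, stood at 55.6 CPM against 200 and 151 (adjusted p = 0.405), and Itgam, the integrin CD11b, at 40.3 against 92.2 and 156. The complement subunit C1qb stood at 2643 against 3986 and 4298. Tyrobp, a signalling adaptor, was above both controls, at 66.1 against 44.6 and 30.2. Ptprc, the leukocyte antigen CD45, stood at 556 CPM against 898 and 787. With libraries scaled to these 20 genes, an alternative chosen after the data were seen, Crybb1, Slc2a5, Tmem119, Lag3 and Gpr34 stayed lower and Cst3 and Sparc higher. Under that scaling Fcrls went from -0.22 to -0.05 and Olfml3 turned from -0.05 to 0.12 on the log2 scale, where the median of all genes shifted by 0.17.

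Genes of activated or axon-tract microglia, which are known to rise as homeostatic genes decline, were found on both sides of the controls. Of 20 tested, 11 were above both controls and 7 below, their median log2 fold change was 0.02 and 0 were called (7 higher and 7 lower at an unadjusted p under 0.05). Gpnmb, a lysosomal glycoprotein, stood at 983 CPM against 235 and 204 (adjusted p = 0.104, edgeR), and the lectin Clec7a at 94.5 against 10.3 and 21.3. Axl, a receptor for dying cells, was on the other side, at 18.9 against 107 and 122, as was the growth factor Csf1 at 84.8 against 283 and 493.

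**Figure D4:**
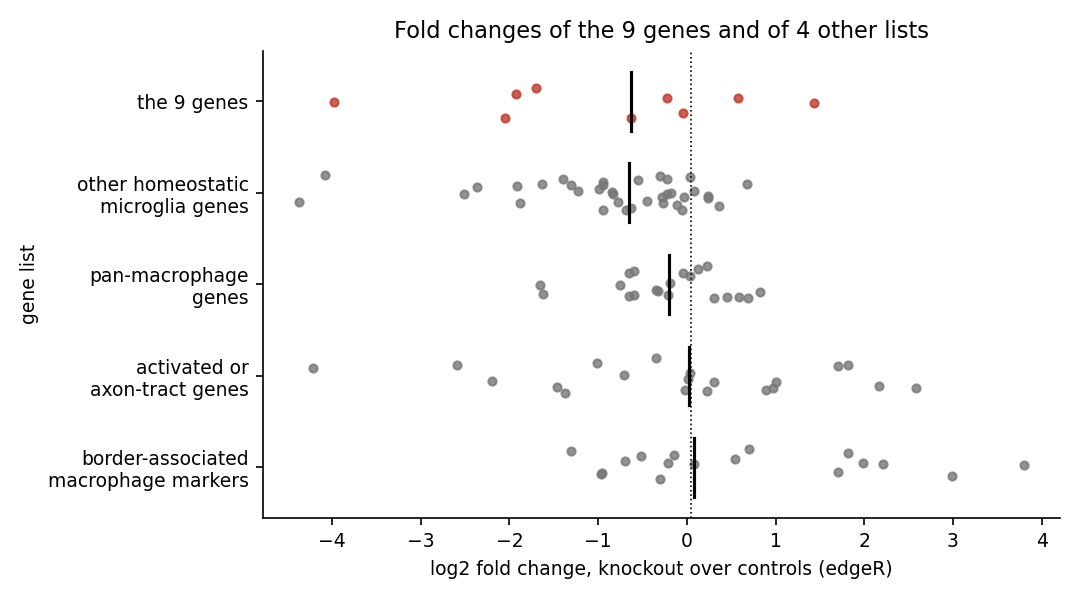
Log2 fold change of the knockout over the controls (edgeR) for each tested gene of 5 lists, with the list median as a solid bar and the median of all genes tested as a dotted line; points are spread vertically at random. The 9 genes run from -3.97 (Crybb1) to 1.44 (Cst3) around a median of -0.63, and the other homeostatic genes have a median of -0.65.

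Targets and ligands of the members were read from a list of 13, of which 8 were tested. Cathepsins are the proteases that cystatin C inhibits, and Ctsb and Ctsh were below both controls. Ctsb stood at 11009 CPM against 17020 in control 5 and 18985 in control 6 (log2 fold change -0.71, SE 0.26, adjusted p = 0.738, edgeR), and Ctsh at 22.6 against 78.5 and 72.5 (adjusted p = 0.435). Lgals3, a galectin reported to bind LAG3, stood at 113 CPM against 51.3 and 61.7 (adjusted p = 0.799). Abhd16a, which makes lysophosphatidylserine, the ligand of GPR34, stood at 38.1 CPM against 9.89 and 25.8 (adjusted p = 0.956). The median log2 fold change of the 8 genes was 0.09, with 3 below both controls, 3 above and 0 called (2 lower and 1 higher at an unadjusted p under 0.05).

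The genes whose profile over the 3 libraries lay closest to each of the 2 members of smallest p were found by Euclidean distance between centred log2 CPM values, among 8822 genes. These were the genes at a mean of 5 CPM or more after predicted genes, pseudogenes and genes of the sex chromosomes were left out. For Crybb1 these were Siglech (distance 0.172), the apelin receptor Aplnr (0.301) and Asb10 (0.327), with Asb10 at 0.821 CPM against 11.3 and 16.5. For Tmem119 they were Fanca (0.0280), Fkbp14 (0.0521) and Cxxc5 (0.0725), with Cxxc5 at 17.6 CPM against 49.7 and 72.3. With 3 libraries many genes share such a profile.

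The authors' deposited tables give the knockout over each control separately, and both comparisons share the knockout library. In the authors' deposited table with control 5, 1 of the 9 genes was marked as significant, where 29.5% of all genes in that table were. This was Crybb1 in the authors' deposited table, with a fold change of 0.0715. In the authors' deposited table with control 6, 5 were marked, where 18.7% of all genes in that table were: Crybb1 at 0.0668, Lag3 at 0.179, Slc2a5 at 0.216, Tmem119 at 0.278 and Cst3 at 3.27. In both of the authors' deposited tables the mark went to genes of over 3-fold change and a p-value under 0.01, given to 5078 and 3354 genes. Slc2a5 (0.335), Tmem119 (0.418) and Cst3 (2.69) fell short of that fold in the authors' deposited table with control 5.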

How the data were processed

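RNA of sorted microglia was sequenced from a kit that does not mark strand, per the labels' protocols. Bowtie2 2.2.3, TopHat2 2.0.12, HTSeq 0.6.0 and the build mm9 are named in the submitters' processing notes, with no order of use. The positions in the tables, however, were identical to GENCODE M21 (GRCm38) for 89.9% of 18480 matched gene IDs, all 9 members included. The authors deposited 2 tables, each with raw read counts of the knockout and 1 control. The same tables hold CPM, which the deposited values show to be the count per library total with 0 set to 0.5 reads, and, for the knockout against that control, the authors' ratio, the log2 of it, and a p-value whose test the sources used here do not name.

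Counts of the 16655 genes in both tables were fitted in edgeR 4.0.16 (R 4.3.3, limma 3.58.1) with filterByExpr, TMM factors (1.06, 0.963 and 0.981), the default quasi-likelihood F test and p-values adjusted by Benjamini-Hochberg over 15236 genes. The controls supply the 1 residual degree of freedom, and the knockout is assumed to vary like them. A prior fitted over all genes adds a median of 6.97 degrees of freedom. SE is the fold change over the root of F. Ratios between single libraries have 2 reads added as a prior. Poisson intervals (95%) cover counting error only. Exon lengths came from GENCODE M21 and promoters from RefSeq (GRCm38.p6). The members and gene lists were chosen with earlier results of these data known. All 9 members and Arid1a are named whatever their values, with, per list, the 4 genes (or fewer) lowest in p among those averaging 5 CPM or more, 11 defining markers and 3 nearest profiles for each of 2 members. Genes next to a member on the chromosome are named beyond that rule. Alternatives were DESeq2 1.42.0 size factors or its Wald test, other factors, filters and gene sets, and leaving out each control. The older form of the edgeR test is this version's default, so the newer form was the one tried beside it.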

Additional observations from a re-analysis of the deposited data

How the results depend on the processing

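No paired analysis was possible because the knockout and control libraries share no replicate number. The knockout is 1 library, so no alternative can show its own spread, and the direction of every member rests on it. Over 9 genes and the 8 alternatives that refit the test, 66 of 72 values kept their direction and their side of the threshold. Leaving out 1 of 2 controls gives no test and cannot move a value past the gap between the controls, and a changed prior count leaves p as it is, so neither speaks for stability. Olfml3 was 0.21 without control replicate 6, a change of sign, and Lag3 was -0.67 without control replicate 6 and -2.59 without control replicate 5. In 5 others a member passed that had not (Crybb1, Tmem119, Slc2a5 and Cst3 with the DESeq2 Wald test, and Crybb1 with the stricter filter), and Olfml3 reversed, to 0.12, when libraries were scaled to pan-macrophage genes. The members called numbered 1 at 5 CPM or more in 2 libraries and 4 with the DESeq2 Wald test. Over all genes edgeR called 0 with DESeq2 size factors, upper-quartile factors, no low-count filter or pan-macrophage scaling (895, 818, 948 and 915 at an unadjusted p under 0.05), 44 with the stricter filter, 14 with the newer form of the test and 10 with genes of either table, and the DESeq2 Wald test called 215. The cause of these differences was not tested. The median of the 9 genes was -0.46 with pan-macrophage scaling and ran from -0.67 without control replicate 6 to -0.45 without control replicate 5. That of the other homeostatic genes ran from -0.73 without control replicate 5 to -0.40 without control replicate 6. Adjusted p over all alternatives with a test ran from 6.26e-05 to 0.350 for Crybb1, from 0.000431 to 0.568 for Tmem119, from 0.00772 to 0.593 for Cst3 and from 0.0178 to 0.642 for Slc2a5. The knockout value of Crybb1 rests on 36 reads.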

Other observations

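Relatives of the member proteins did not follow them as a group. Of 34 relatives in a list, 20 were tested, with the knockout above both controls in 12 and below both in 4 (38.0% and 31.1% of all genes tested), a median log2 fold change of 0.52 and 0 called (1 lower and 1 higher at an unadjusted p under 0.05, edgeR). Slc2a6, a lysosomal sugar transporter of the same family as Slc2a5, stood at 72.4 CPM in the knockout, beside 9.66 and 25.3 in controls 5 and 6 (adjusted p = 0.544), and Slc2a1, the glucose transporter GLUT1, at 221 against 138 and 165. Slc2a3, the glucose transporter GLUT3, stood at 54.1 against 28.4 and 29.0. Olfml2b, a relative of Olfml3, had 1556 knockout reads where control 5 had 0 and control 6 had 206 (adjusted p = 0.870), so the controls themselves were far apart.

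The tested genes on either side of each member on its chromosome numbered 18. The knockout was above both controls in 8 of them and below both in 5 (38.0% and 31.1% of all genes tested), and 0 were called. At an unadjusted p under 0.05 (edgeR) there were 3, as there were 914 of all 15236 genes. Besides Cryba4, these were Cd5l and Zfp120. Cd5l, a macrophage-secreted scavenger protein 94142 bases from Fcrls, had 419 reads in the knockout against 51 and 34 (adjusted p = 0.348, edgeR). Zfp120, the nearest tested gene on the higher-coordinate side of Cst3 but 1238713 bases away, had 525 against 1159 and 969 (adjusted p = 0.733, edgeR). Both were chosen for naming after their values were seen.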
